A study of Mus musculus with 4 samples.

Results

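The Zfp genes are mouse genes whose symbols are Zfp followed by a number, with an optional letter, and most encode proteins with zinc fingers, short loops folded around a zinc ion. They were taken by that symbol from the annotation of a promoter and CpG island array on which DNA methylation had been measured by methylated DNA immunoprecipitation (MeDIP). A gene entered where at least 3 of its probes had input signal well above background on all 4 arrays, which gave 258 Zfp genes among 17036 named genes. Another 5 of the 263 Zfp symbols on the array (Zfp119, Zfp345, Zfp456, Zfp498 and Zfp791) had too few such probes. Removing spots that the scanner software had marked as uneven kept all 258 and left 17035 genes in all, 16777 of them with other names.

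The cells were mouse leukaemic cells, labelled as cell line MII5 and grown with human interleukin-6, mouse interleukin-3 and mouse stem cell factor. The groups, with 1 array each, were KO cells with decitabine, wild type (WT) cells with decitabine, KO cells without treatment and WT cells without treatment. Treated cells received 20 nM decitabine, a deoxycytidine analogue that traps DNA methyltransferases, at intervals of 24 h over 3 days. The harvest of treated and untreated cells was at 72 h. The source names of the KO cells begin Mll5KO and those of the WT cells Mll5WT, whereas the genotype field of the KO cells names HOXA9, so they are called KO here. Both source names carry the letters HM, which the labels do not explain. The labels do not say whether the arrays came from separate cultures or clones, each array lay on a slide of its own, and slide and group cannot be told apart. An array of DNA gives no expression by which the cell type could be checked.

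Many zinc finger proteins carry a KRAB box, a domain at their start that binds TRIM28. TRIM28 gathers the histone methyltransferase SETDB1, heterochromatin proteins and DNA methyltransferases, and the fingers decide which DNA sequence this machinery reaches. KRAB zinc finger genes are known for silencing transposons and for keeping imprints, and they lie in clusters that arose by repeated duplication. Other Zfp genes encode activators, repressors without a KRAB box, or proteins that bind RNA.

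Each value is the log2 ratio of MeDIP DNA over input DNA, set to a median of 0 over all probes of its array and averaged over the probes of a gene. The probes lay between 45 and 60 bases long, and 12 of them are printed here because the results on single genes turn on them. All are given 5′ to 3′ on the plus strand of mm9 as deposited, in lower case with each CpG, the dinucleotide in which mouse DNA is methylated, in capitals. For Zfp827, whose protein recruits a chromatin remodelling complex to telomeres in human cells, 4 intronic probes on chromosome 8 are shown. Probes 1 and 3 were the ones whose MeDIP signal stood well above background on all 4 arrays.
Zfp827 probe 1 (chr8:81553538-81553582): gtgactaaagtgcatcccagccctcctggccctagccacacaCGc
Zfp827 probe 2 (chr8:81553667-81553711): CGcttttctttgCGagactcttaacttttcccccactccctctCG
Zfp827 probe 3 (chr8:81554120-81554165): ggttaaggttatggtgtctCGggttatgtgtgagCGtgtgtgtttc
Zfp827 probe 7 (chr8:81636588-81636632): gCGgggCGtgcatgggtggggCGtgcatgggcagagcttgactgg
For Zfp354a, a KRAB zinc finger gene on chromosome 11, probe 5 lies upstream of the gene start and probes 8 and 15 are intronic.
Zfp354a probe 5 (chr11:50872250-50872304): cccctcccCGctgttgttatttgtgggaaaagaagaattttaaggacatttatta
Zfp354a probe 8 (chr11:50873003-50873047): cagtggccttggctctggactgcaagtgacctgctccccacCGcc
Zfp354a probe 15 (chr11:50874159-50874218): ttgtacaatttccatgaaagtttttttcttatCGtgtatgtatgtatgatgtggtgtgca
For Zfp75 on chromosome 9 the shown probes lie outside any GENCODE M1 gene, and probe 5 had no CpG.
Zfp75 probe 5 (chr9:19425910-19425969): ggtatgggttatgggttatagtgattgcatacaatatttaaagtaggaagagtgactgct
Zfp75 probe 7 (chr9:19426573-19426617): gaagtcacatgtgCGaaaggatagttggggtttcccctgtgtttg
Zfp75 probe 8 (chr9:19426720-19426764): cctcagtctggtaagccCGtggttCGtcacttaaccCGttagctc
For Zfp42, also called Rex1 and used as a marker of pluripotent cells, 2 intronic probes are shown, 1 with and 1 without CpG.
Zfp42 probe 3 (chr8:44391223-44391271): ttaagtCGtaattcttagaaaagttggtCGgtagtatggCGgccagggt
Zfp42 probe 4 (chr8:44391344-44391403): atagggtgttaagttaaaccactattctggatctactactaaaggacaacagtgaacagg

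The 258 Zfp genes were spread over 20 chromosomes, 68 of them on chromosome 7. They had a median of 16 kept probes and at most 62, against a median of 18 in other genes. Of the 6836 Zfp probes 4415 were kept (64.6%), against 63.1% of all probes. MeDIP signal was well above background in 17.7% of the kept Zfp probes on the KO decitabine array, 15.9% on the WT decitabine array, 4.37% on the KO untreated array and 4.35% on the WT untreated array. Surrogate values stood in for MeDIP signals too close to background in 36.9%, 38.6%, 58.4% and 60.9% of them on the same arrays. A fold between 2 arrays is therefore given only where the gene had at least 1 bright probe on each of them, not always the same probe, bright meaning MeDIP signal that the scanner software called well above background. Such folds still average over dim probes. On no array did a kept Zfp probe saturate.

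On every array the Zfp genes lay close to other genes. Their median log2 ratio was -0.45 with decitabine in KO cells, -0.49 with decitabine in WT cells, -0.67 in untreated KO cells and -0.73 in untreated WT cells. Other genes had medians of -0.46, -0.47, -0.63 and -0.71 on those arrays. Zfp genes minus other genes thus came to 0.01, -0.02, -0.04 and -0.02, small beside the spread among Zfp genes, whose quartiles were -1.07 and -0.51 on the WT untreated array. The medians lay below 0 because probes with bright input were kept, while the array median was taken over all probes. Above the array median were 24, 21, 5 and 9 of the 258 Zfp genes on the KO decitabine, WT decitabine, KO untreated and WT untreated arrays.

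**Figure D1:**
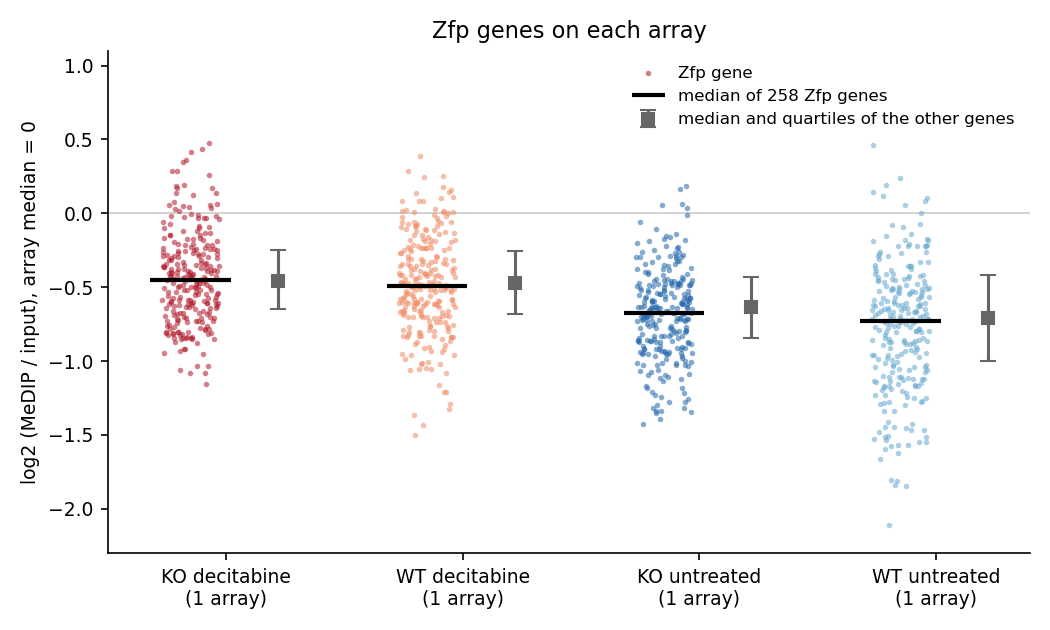
The log2 ratio of MeDIP over input is plotted for each of 258 Zfp genes on each array, with their median as a black line and the median and quartiles of 16777 other genes as a grey square with bars. The Zfp medians lie between -0.73 and -0.45 and within the quartiles of the other genes on each array, and the higher position of the decitabine arrays turns into a lower one when arrays are centred on bright probes.

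The highest and lowest members differed by more than 1 on the log2 scale over the mean of 4 arrays. Zfp518b had the lowest mean, -1.38 over 3 probes on chromosome 5 (39075785 to 39076141), with -1.08, -1.50, -1.32 and -1.62 on the KO decitabine, WT decitabine, KO untreated and WT untreated arrays. Zfp592 on chromosome 7 followed with -1.23 over 5 probes, Zfp777 on chromosome 6 with -1.17 over 6 probes and Zfp622 on chromosome 15 with -1.15 over 14 probes. At the other end, Zfp583 on chromosome 7 had a mean of 0.20 over 12 probes (6280176 to 6283320), with 0.43, 0.24, 0.18 and -0.08 on the same arrays. Zfp330 had 0.14 over 18 probes, Zfp654 had 0.12 over 16 probes and Zfp42 had 0.09 over 14 probes. On all 4 arrays Zfp583 lay above Zfp518b, an order favoured by their choice from the mean of these arrays. Zfp518b had no bright probe on any array, and its place among the lowest members rests on dim signal. Zfp592 had 1 bright probe, on the WT decitabine array alone, and Zfp42 and Zfp654 had none on the untreated arrays.

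These ends also differed in CpG content. The observed over expected CpG ratio, computed in windows of 500 bases around the probes, averaged 0.96 in Zfp518b, 0.77 in Zfp777, 0.72 in Zfp592 and 0.54 in Zfp622. It was 0.36 in Zfp583, 0.36 in Zfp330, 0.32 in Zfp42 and 0.19 in Zfp654. The 200 bases upstream of the gene start hold 24 CpGs in Zfp518b and 14 in Zfp583, so CpGs are frequent before Zfp583 as well. These are counts over a single stretch, whereas the ratio averages over the windows of all kept probes of a gene. Both stretches are printed from mm9 on the strand of the gene, which is the minus strand, with CpG in capitals.
Zfp518b (chr5:39075990-39076189): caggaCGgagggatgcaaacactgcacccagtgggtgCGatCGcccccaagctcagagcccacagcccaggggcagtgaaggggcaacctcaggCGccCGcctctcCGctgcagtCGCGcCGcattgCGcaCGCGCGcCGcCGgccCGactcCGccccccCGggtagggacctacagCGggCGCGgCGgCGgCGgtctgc
Zfp583 (chr7:6282888-6283087): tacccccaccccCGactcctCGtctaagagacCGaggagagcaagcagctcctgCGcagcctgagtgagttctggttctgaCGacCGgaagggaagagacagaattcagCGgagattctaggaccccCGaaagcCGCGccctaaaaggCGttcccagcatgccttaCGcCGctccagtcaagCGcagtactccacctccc
Over all 258 Zfp genes the CpG ratio and the mean level had a correlation of r = -0.52, and over 16777 other genes r = -0.32. Genes of 1 array share its normalization and are not independent, so these are descriptions. The 86 Zfp genes poorest in CpG had medians of -0.40, -0.40, -0.54 and -0.55 on the KO decitabine, WT decitabine, KO untreated and WT untreated arrays. The 86 richest had -0.58, -0.72, -0.88 and -1.11, so the gap between rich and poor genes was widest in untreated WT cells and narrowest in KO cells with decitabine.

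The same dip appeared around gene starts. Zfp probes in the first 200 bases after a start had medians of -0.57 with decitabine in KO cells, -0.87 with decitabine in WT cells, -1.04 in untreated KO cells and -1.42 in untreated WT cells. Between 2000 and 5000 bases upstream the medians were -0.32, -0.33, -0.40 and -0.44. Probes of other genes had -0.59, -0.998, -1.09 and -1.37 in the 200 bases after the start. In CpG-dense windows (ratio from 0.75 up and GC from 55% up) the 446 Zfp probes had medians of -0.50, -1.08, -1.15 and -1.55, and in CpG-poor windows (ratio under 0.48) the 2973 Zfp probes had -0.40, -0.33, -0.47 and -0.49. In CpG-dense windows the KO decitabine array thus stood well above the other arrays, whereas in CpG-poor windows it lay below the WT decitabine array. The order in CpG-dense windows depends on the centring. Bright probes had medians of 0.372, 0.078, -0.501 and -0.525 on the same arrays. Centred on them, the KO decitabine array falls below the KO untreated array in CpG-dense windows. The step from CpG-poor to CpG-dense windows within an array keeps its size, and it was smallest on the KO decitabine array. Probes of other genes in CpG-dense windows had -0.53, -1.13, -1.26 and -1.62. The lower ratio of CpG-dense windows did not go with fewer bright probes. Of the Zfp probes in CpG-dense windows 25.3%, 24.0%, 7.6% and 5.6% were bright on these arrays. In CpG-poor windows 16.5%, 14.1%, 3.7% and 4.0% were. The part of the input and of dim signal in the lower ratio was not tested.

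**Figure D2:**
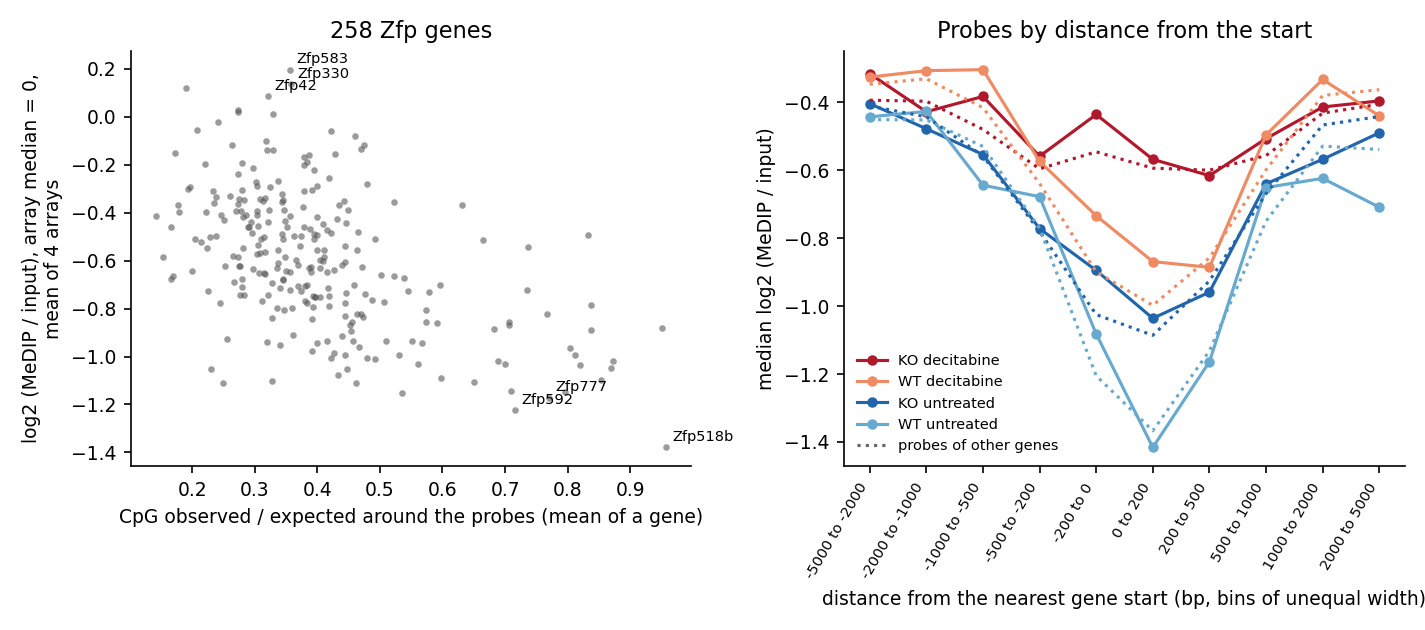
The left panel sets the mean log2 ratio of each of 258 Zfp genes over 4 arrays against the CpG observed over expected ratio around its probes (r = -0.52). The right panel gives the median log2 ratio of Zfp probes (lines with points) and of probes of other genes (dotted) by distance from the nearest gene start, where the lowest Zfp median is -0.62 on the KO decitabine array and -1.42 on the WT untreated array.

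Protein features were read from translations of GENCODE M1 transcripts, available for 249 of the 258 genes. A KRAB box pattern matched 79 of them, and a protein without a match is not shown to lack the domain: Zfp57, a KRAB protein that keeps imprints, matched only a looser pattern, which found 87. Proteins with the pattern had a median of 12 C2H2 fingers, against 8 in those without. Genes with the pattern had medians of -0.44, -0.47, -0.64 and -0.69 on the KO decitabine, WT decitabine, KO untreated and WT untreated arrays, and genes without it -0.45, -0.51, -0.68 and -0.74. The CpG ratio was 0.36 in genes with the pattern and 0.38 in genes without. The 125 genes with at least 10 fingers had a median level over the arrays of -0.56, and the 42 genes with 1 to 4 fingers -0.63.

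Of the 258 genes 108 lay in 14 clusters, here runs of at least 4 Zfp genes with gaps of at most 1 Mb. Chromosome 7 held 7 of the clusters with 58 members. Genes in clusters had a median mean level of -0.58 and the other 150 genes -0.63. The KRAB pattern matched 54 genes inside clusters, but none of 14 in the largest, on chromosome 7 from 24867805 to 26012767. Since the pattern requires fixed residues, this does not show that those 14 genes lack the domain.

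The clusters with the highest levels were on chromosomes 11 and 13. The 5 genes on chromosome 11 (50639635 to 50875113) had a median of -0.38, with Zfp354b highest at -0.29 and Zfp454 lowest at -0.68. The 10 genes on chromosome 13 (67161882 to 67936184) also had a median of -0.38, with Zfp748 highest at 0.01 and Zfp708 lowest at -1.11. The lowest clusters were on chromosome 15 (75441710 to 76760408), where 6 genes had a median of -0.81 between Zfp41 at -0.46 and Zfp623 at -1.01, and on chromosome 6 (47778565 to 48580386), where 7 genes had a median of -0.77 between Zfp786 at -0.47 and Zfp777 at -1.17. CpG ratios were 0.33 and 0.30 in the clusters on chromosomes 11 and 13, and 0.47 and 0.39 in those on chromosomes 15 and 6.

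With decitabine most Zfp genes had a higher ratio than without, as most genes did. In KO cells 209 of 258 Zfp genes were higher (background 76.5% of all genes) and 49 lower (background 23.5%), with a median difference of 0.25 against 0.21 in other genes. In WT cells 220 were higher (background 80.2%) and 38 lower (background 19.8%), with a median difference of 0.27 against 0.25 in other genes. Zfp genes minus other genes came to 0.04 in KO cells and 0.02 in WT cells, so both shares stand near the background. A ratio centred on each array cannot show a change of all DNA together. When arrays were centred on probes bright in both channels, the median difference of all genes moved by -0.87 in KO cells and -0.60 in WT cells, to -0.66 and -0.35, and differences smaller than those shifts turn negative there. In the MeDIP channel alone the median difference over all genes was 0.50 in KO cells and 0.49 in WT cells, and in the input channel -0.03 and 0.03.

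Few Zfp genes differed 2-fold or more with 80% or more of their probes on the same side. In KO cells 4 Zfp genes passed this rule upwards (Zfp292, Zfp354a, Zfp371 and Zfp82; background 0.757% of all genes) and 0 downwards (background 0.00587%). In WT cells Zfp800 passed it upwards (background 1.07%) and 0 genes downwards (background 0.0117%). With 1 array a group these counts carry no test, and a count of 4 or 1 in 258 changes with a single gene.

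Zfp354a had a log2 ratio of 0.48 with decitabine in KO cells, -0.36 with decitabine in WT cells, -0.66 in untreated KO cells and -0.96 in untreated WT cells, over 16 probes on chromosome 11 (50870202 to 50875113). In KO cells it was 1.13 ± 0.87 higher with decitabine (SD over probes, 2.19-fold), in 16 of 16 probes. The MeDIP channel was 1.21 higher and the input channel 0.25 lower (a log2 difference of -0.25). In WT cells it was 0.61 ± 1.13 higher, in 11 of 16 probes. Intronic probe 8, printed above with its single CpG, had 0.29, -1.37, -2.04 and -3.29 on the KO decitabine, WT decitabine, KO untreated and WT untreated arrays. Probe 5 had 1.66 on the KO decitabine array, the only array on which it was bright. Limma's additive model gave a decitabine difference of 0.87 ± 0.14 (SE) with an adjusted p of 0.00126. Centred on bright probes, the difference in KO cells was 0.26.

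Zfp82, a KRAB zinc finger gene in a cluster of chromosome 7 (30857120 to 30862107), had -0.21 and -0.57 with decitabine in KO and WT cells, and -1.34 and -1.45 without. In KO cells it was 1.13 ± 0.99 higher with decitabine (2.19-fold, 10 of 11 probes), and the probe that was bright on both arrays was 0.30 higher. Zfp371, also on chromosome 7 (6168944 to 6176143), had 0.36 and 0.14 with decitabine in KO and WT cells, and -0.72 and -0.85 without. Its difference in KO cells was 1.08 ± 1.06 (2.11-fold, 9 of 11 probes). Centred on bright probes, these differences were 0.26 in Zfp82 and 0.21 in Zfp371, which ends both calls. In both genes the decitabine arrays of KO and WT cells lay above the untreated arrays without overlap. The share of all genes for which this held was not counted. Of all genes 76.5% were higher with decitabine in KO cells and 80.2% in WT cells. Zfp292, on chromosome 4, had -0.28 and -0.84 with decitabine in KO and WT cells and -1.34 and -1.53 without. Zfp800, on chromosome 6, had -0.29 and -0.54 with decitabine and -0.86 and -1.84 without. In these genes probes were bright only with decitabine, and no fold is given. The call of Zfp292 in KO cells also ends when arrays are centred on bright probes (0.19), and that of Zfp800 in WT cells ends there too (0.69).

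Zfp827 had the largest decitabine difference of the Zfp genes in WT cells, without passing the share of probes. Over its 8 intronic probes (chromosome 8, 81553538 to 81636710) it had -0.09 and -0.43 with decitabine in KO and WT cells, -0.92 in untreated KO cells and -2.11 in untreated WT cells, the lowest Zfp value there. With decitabine it was 0.83 ± 1.03 higher in KO cells and 1.68 ± 1.36 higher in WT cells, in 6 of 8 probes each. Centred on bright probes, the difference was 1.07 in WT cells and turned slightly negative in KO cells. In WT cells the MeDIP channel was 1.76 higher and the input channel differed by -0.14. The probes fell in 2 groups 81.6 kb apart, and each group held probes that were higher with decitabine on the KO and WT arrays. Probe 7, with 3 CpGs, had 0.17, -0.36, -1.27 and -3.48 on the KO decitabine, WT decitabine, KO untreated and WT untreated arrays. It was not bright on the WT untreated array, where only probes 1 and 3 were. Probe 3, bright on all arrays, had 1.13, 0.75, -0.14 and -0.64. Limma gave a decitabine difference of 1.26 ± 0.17 (SE) with an adjusted p of 0.000517.

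**Figure D3:**
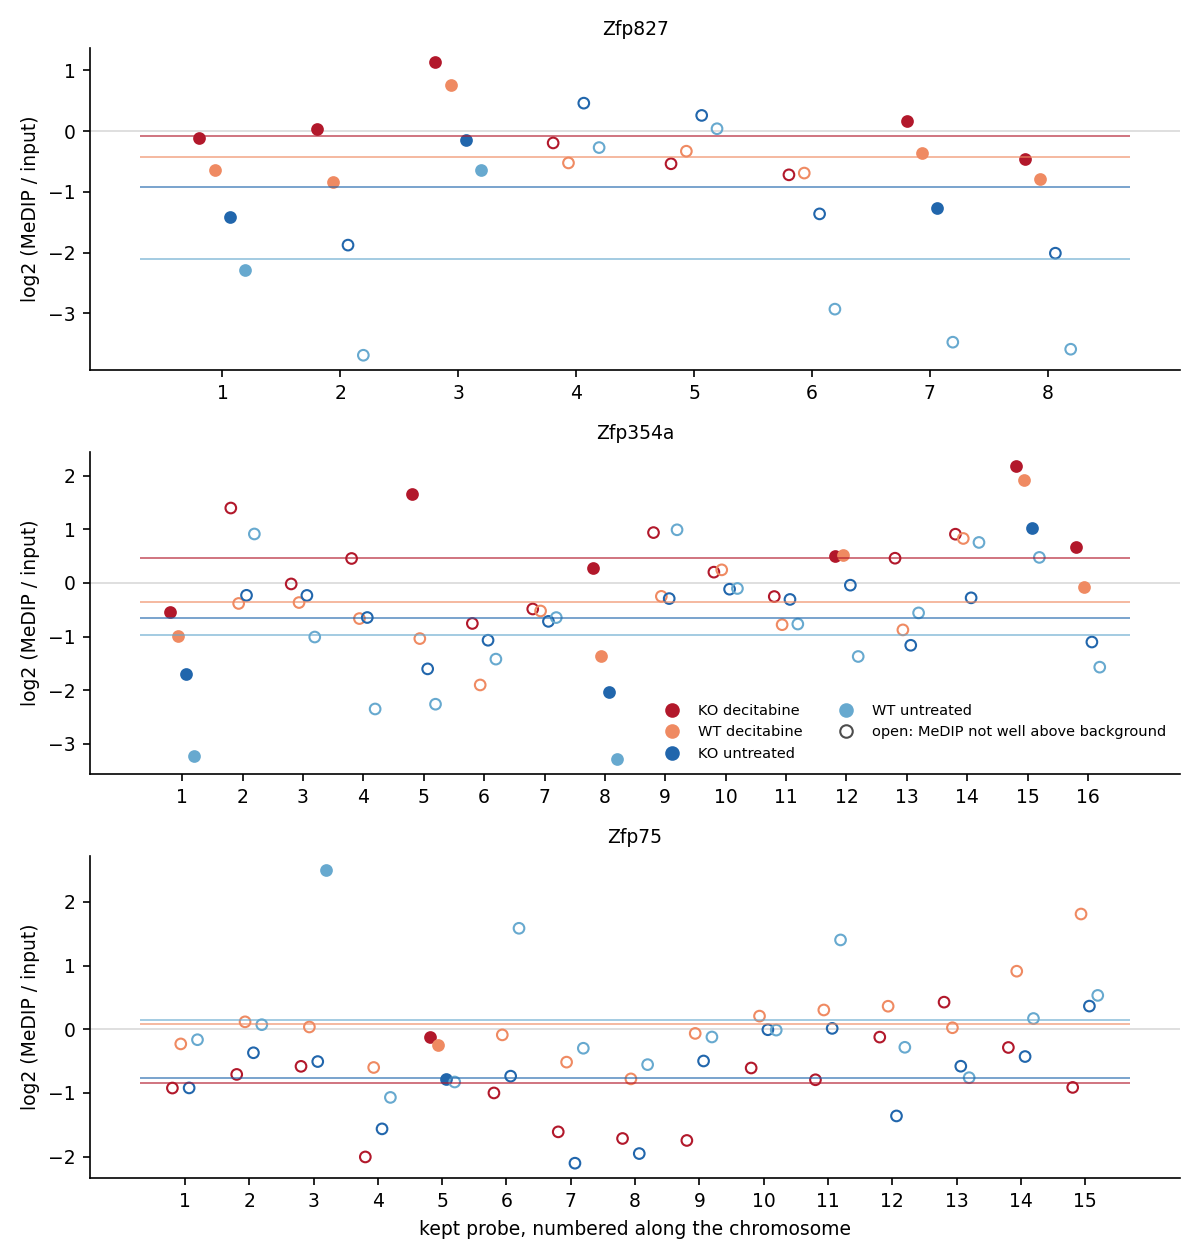
The log2 ratio of each kept probe of Zfp827, Zfp354a and Zfp75 is plotted on the 4 arrays, filled where MeDIP signal was well above background and open where it was not, with horizontal lines at the gene means. In Zfp827 the gene mean is highest on the KO decitabine array (-0.09) and lowest on the WT untreated array (-2.11), and in Zfp75 both KO arrays (-0.85 and -0.76) lie below both WT arrays (0.08 and 0.15).

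On the lower side, Zfp458 of the chromosome 13 cluster had the lowest difference in both cell types. It had -0.56 and -0.18 with decitabine in KO and WT cells, and 0.06 and 0.46 without, over 3 probes that hold no CpG themselves. It had no bright probe on any array, so no fold is given, and the same held for Zfp59 and Zfp830, the next lowest in WT and KO cells.

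Limma's additive model over the 4 arrays placed 103 of 258 Zfp genes past an adjusted p of 0.05 for decitabine, 39.9% against a background of 34.9%. Of these 100 were higher (background 32.8%) and 3 lower (background 2.11%). It has 1 residual degree of freedom, the interaction, so an error in it tells how far the arrays depart from additivity and nothing of the spread between cultures. Centred on bright probes, 133 Zfp genes passed and 1 of them was higher. A probe bright on all arrays was present in 45 of the 103.

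Genes with known roles were listed with earlier results in view, and 21 of 22 were on the array. Limma placed 10 of the 21 higher (background 32.8%) and 0 lower (background 2.11%) with decitabine, with a median difference of 0.35 against 0.27 over all Zfp genes. Zfp57, whose protein binds methylated imprinting control regions, had 0.03, -0.18, -0.44 and -0.56 on the KO decitabine, WT decitabine, KO untreated and WT untreated arrays, and a limma difference of 0.43 ± 0.12 with an adjusted p of 0.0184. Zfp809, whose protein brings TRIM28 to retroviral DNA, had 0.35, -0.04, -0.19 and -0.37 (0.44 ± 0.13, limma adjusted p = 0.0183). Zfp568, a KRAB gene that represses a placental transcript of Igf2, had -0.35, -0.38, -1.13 and -1.27, with a limma difference of 0.84 ± 0.12 and an adjusted p of 0.00081. In these 3 genes, all past limma for decitabine, both decitabine arrays lay above both untreated arrays. This order follows in part from passing, and the share of all genes with it was not counted. In the single comparisons 76.5% of all genes were higher with decitabine in KO cells and 80.2% in WT cells. Under centring on bright probes all 3 differences turn negative in the KO cells. In the WT cells those of Zfp57 and Zfp809 turn negative too, while that of Zfp568 does not.

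Zfp42 had 0.29, 0.39, -0.16 and -0.17 on those arrays, and its kept probes were bright only with decitabine. Its probe 4, which holds no CpG, had 1.57 and 2.16 with decitabine in KO and WT cells, and -0.91 and 0.37 without. Zfp36, which encodes tristetraprolin, a protein that binds AU-rich RNA and promotes its decay, had -0.84, -1.05, -0.95 and -1.19. Its limma difference for decitabine was 0.13 ± 0.12 with an adjusted p of 0.424. Zfp423 and Zfp521, related cofactors of early B cell factor, had limma differences of 0.43 ± 0.12 and 0.43 ± 0.13 with adjusted p of 0.0192 and 0.0203. Zfp384, whose human counterpart is fused to other genes in acute lymphoblastic leukaemia, had -0.04 and -0.41 with decitabine in KO and WT cells and -0.55 and -0.80 without (0.45 ± 0.12, limma adjusted p = 0.0152). Zfp217 had -0.47 and -0.96 with decitabine and -1.35 and -1.81 without (0.87 ± 0.12, limma adjusted p = 0.000662). Its decitabine arrays thus lay above its untreated ones, an order whose share over all genes was not counted. With decitabine 76.5% of all genes were higher in KO cells and 80.2% in WT cells. Zfp819 also passed, with 0.44 ± 0.12 (limma adjusted p = 0.0155). Centring on bright probes shifts differences by -0.87 in KO and -0.60 in WT cells. The limma differences of Zfp423, Zfp521, Zfp384 and Zfp819 are smaller than that and turn negative under it. In KO cells Zfp217 was 0.88 higher, close to the shift, and it had no bright probe on either untreated array. Zfp384 had none on the WT untreated array. Zfp110, Zfp143, Zfp148, Zfp161, Zfp238, Zfp281, Zfp335 and Zfp536 did not pass, with limma differences from 0.07 (Zfp335) to 0.35 (Zfp148) and adjusted p from 0.0635 to 0.682.

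Between KO and WT cells the Zfp genes were again close to other genes. With decitabine 154 of 258 were higher in KO cells (background 54.9%) and 104 lower (background 45.1%), with a median difference of 0.06 against 0.03 in other genes. Without treatment 168 were higher (background 62.6%) and 90 lower (background 37.4%), with a median difference of 0.10 against 0.08. The 2-fold rule was passed upwards by 2 genes with decitabine (Zfp410 and Zfp81; background 0.276%) and by Zfp827 without (background 0.17%). Downwards it was passed by 0 genes in both (background 0.0352% with decitabine and 0.0704% without). The genotype comparisons with and without decitabine share no array with each other, but each shares arrays with both decitabine comparisons.

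Zfp827 was 1.19 ± 0.70 higher in KO cells without treatment (2.28-fold, 8 of 8 probes), where the MeDIP channel differed by 0.70 and the input channel by -0.45. Its 2 probes bright on both arrays differed by 0.69. With decitabine its difference was 0.34 ± 0.34 in 6 of 8 probes, with -0.09 in the MeDIP channel and -0.51 in the input channel. The 177 probes of other names within 1 Mb of it had median differences of -0.08 with decitabine and 0.00 without. Zfp410 had 0.14 and -0.91 in KO and WT cells with decitabine, but no bright probe on any array, and its input channel differed by -0.71. Zfp12, on chromosome 5, was 0.74 lower in KO cells with decitabine (a log2 difference of -0.74 ± 0.89, 3 of 20 probes higher), of which the MeDIP channel carried -0.62.

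Zfp75 had the lowest KO minus WT difference of the Zfp genes with and without decitabine. Over 15 probes (chromosome 9, 19425021 to 19428573) it had -0.85 and 0.08 in KO and WT cells with decitabine, and -0.76 and 0.15 in untreated KO and WT cells. The differences were -0.93 ± 0.73 with decitabine (2 of 15 probes higher) and -0.91 ± 0.92 without (3 of 15 probes higher). The input channel was higher in KO cells by 0.86 with decitabine and by 0.76 without, whereas the MeDIP channel differed by 0.00 and -0.18. Probe 8, with 3 CpGs, had -1.72 and -0.78 in KO and WT cells with decitabine and -1.95 and -0.56 without. No single probe was bright on both untreated arrays. Probe 5, bright on every array but WT untreated, had -0.11, -0.25, -0.78 and -0.83 on the KO decitabine, WT decitabine, KO untreated and WT untreated arrays, higher in KO cells in both comparisons, and so was probe 13 with 0.43, 0.02, -0.58 and -0.76. The 319 probes of other names within 1 Mb of Zfp75 had median differences of -0.26 with decitabine and -0.24 without, with input differences of 0.14 and 0.23. Over all kept probes the median differences were 0.04 and 0.12 and the input differences -0.13 and -0.07. Limma gave a genotype difference of -0.92 ± 0.12 (SE) with an adjusted p of 0.00246.

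The input channel also differed in the Zfp genes called for genotype. Limma placed 15 Zfp genes past an adjusted p of 0.05 for genotype (5.81%, background 4.51%), of which 12 were higher in KO cells (background 2.85%) and 3 lower (background 1.67%). This split does not hold under every setting: with loess 6 passed and with centring on bright probes 2, of which 0 were higher in either case. Zfp217, Zfp354a, Zfp410, Zfp777, Zfp800 and Zfp827 were among the higher, and Zfp75 and Zfp438 among the lower. In 15 of the 15 the input channel differed in the opposite direction in both genotype comparisons. Over all genes the median input difference was -0.09 with decitabine and -0.05 without, the same direction as in the 12 higher genes. The share of all genes with input in the opposite direction was not counted. In 6 of the 15 the MeDIP channel differed in the same direction as the ratio in both. The input difference was larger than the MeDIP difference in 13 of them with decitabine and in 10 without. A probe was bright on all arrays in 4 of the 15 and on none in 4. The input is the denominator of the ratio, so its differences are not independent of these calls, and the part of the input in them was not tested.

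**Figure D4:**
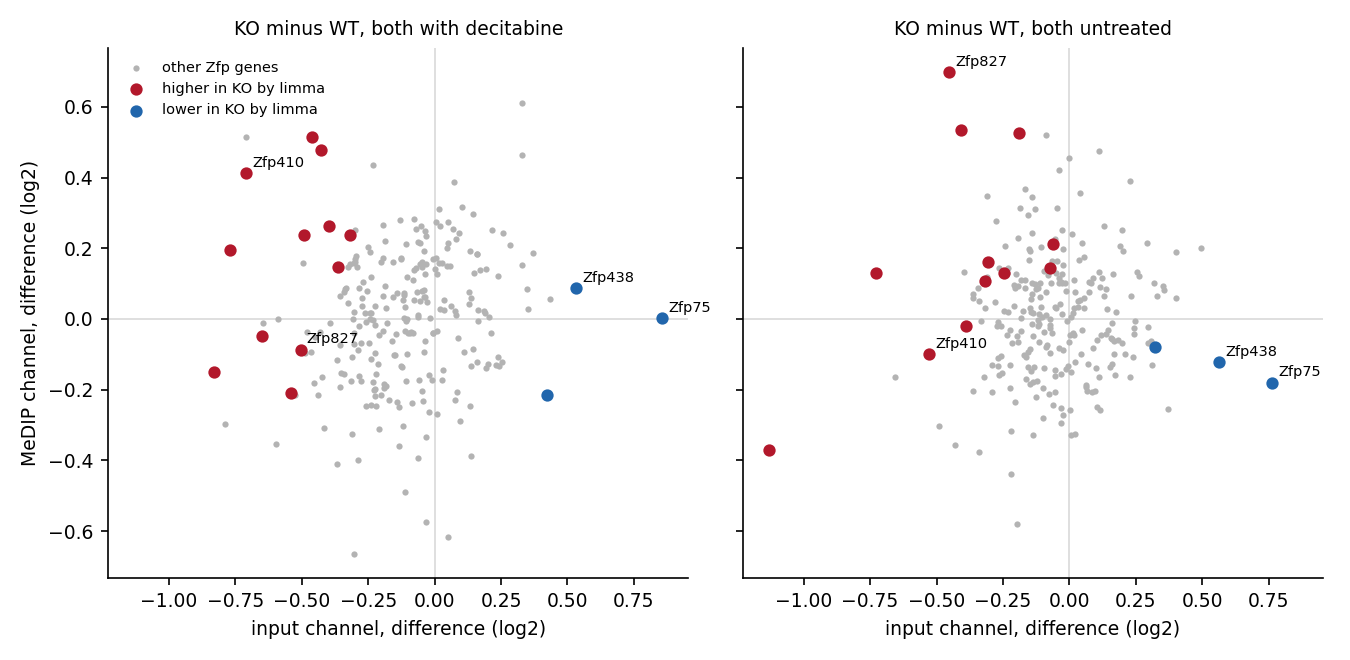
For each of 258 Zfp genes the difference of KO minus WT in the input channel (x axis) is set against that in the MeDIP channel (y axis), with decitabine on the left and without on the right. The 12 genes higher in KO cells by limma (red) lie left of 0 and the 3 lower ones (blue) right of 0 in both panels, with Zfp75 at 0.86 and 0.76 in the input channel. With loess or with centring on bright probes, 0 genes passed as higher.

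By cluster, the Zfp genes of chromosome 13 stood lower in KO cells. This cluster was chosen after its values were seen. Its 10 members had medians of -0.55 in KO and -0.17 in WT cells with decitabine, and -0.47 in KO and -0.24 in WT cells without. The median difference was -0.27 with decitabine and -0.23 without, beside 0.03 and 0.08 over all genes. In each comparison 9 of 10 members lay below 0, beside 45.1% of all genes with decitabine and 37.4% without. The exceptions were Zfp457 with decitabine (0.08) and Zfp708 without (0.53), and Zfp759 had the lowest difference, -0.71, with decitabine. Members without a bright probe on any array included Zfp455, Zfp457 and Zfp458, so part of these values rests on dim signal. Input medians of the cluster differed by 0.13 and 0.08, against -0.09 and -0.05 over all genes, and MeDIP medians by -0.22 and -0.09. Taken over the 105 single probes in place of the 10 genes, the median difference was -0.30 with decitabine but 0.00 without. Probes of other names inside the cluster (47) had -0.02 and 0.08, and the 161 probes of the other 9 Zfp genes of chromosome 13 had 0.005 and 0.02.

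**Figure D5:**
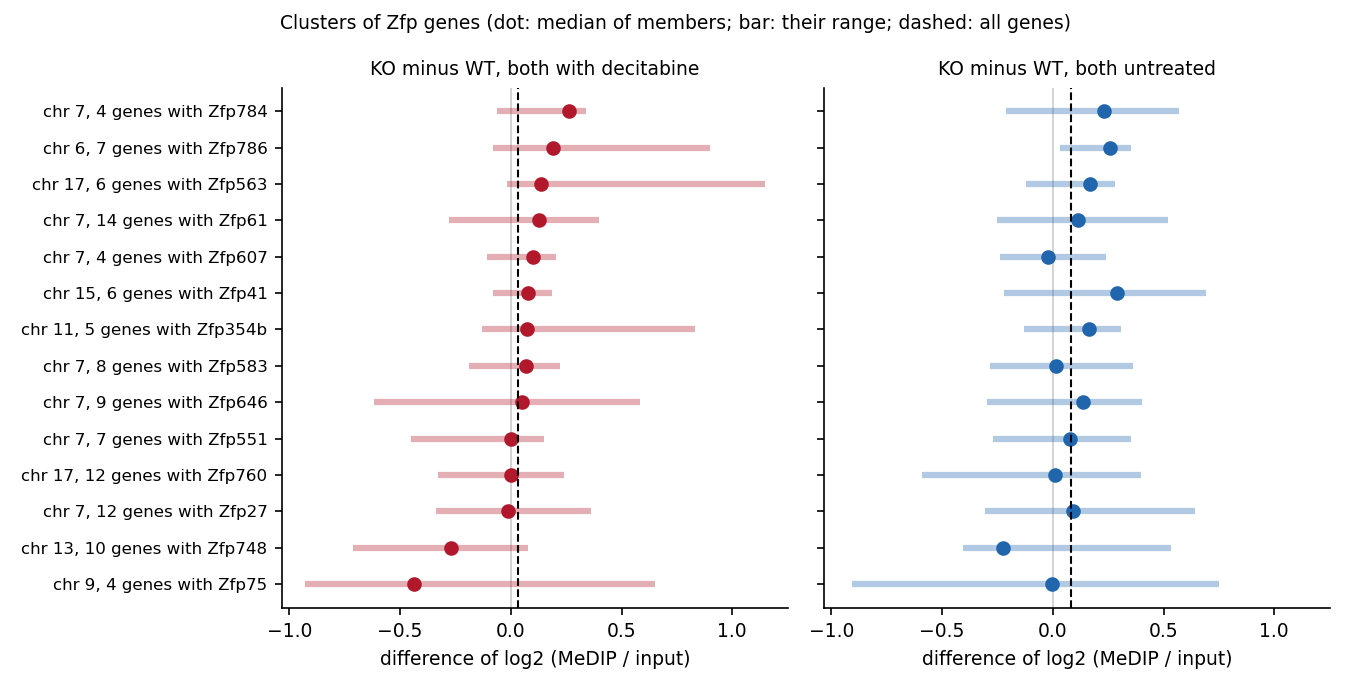
The KO minus WT difference is plotted for the 14 clusters of Zfp genes, with decitabine on the left and without on the right, as the median of the members (dots), their range (bars) and the median of all genes (dashed). The chromosome 13 cluster lies at -0.27 and -0.23, and the chromosome 9 cluster with Zfp75 at -0.44 and 0.00.

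The partners of KRAB zinc finger proteins were also measured, 16 of 16 genes from a list chosen with earlier results in view. None passed the 2-fold rule in any of the 4 comparisons, beside the backgrounds given above. For decitabine limma placed 7 of the 16 higher (background 32.8%) and 0 lower (background 2.11%), and for genotype 0 either way (background 4.51%). Their median difference with decitabine was 0.31 in KO cells and 0.31 in WT cells, and that of KO minus WT 0.15 with decitabine and 0.11 without. Trim28 had -0.55 and -0.91 in KO and WT cells with decitabine and -1.27 and -1.27 without (decitabine difference 0.54 ± 0.13, limma adjusted p = 0.00851). Chd4, a chromatin remodeller, had -0.03 and -0.27 with decitabine and -0.71 and -1.14 without (0.77 ± 0.13, limma adjusted p = 0.00123). In both genes the decitabine arrays lay above the untreated arrays, and the share of all genes for which this held was not counted. Of all genes 76.5% were higher with decitabine in KO cells and 80.2% in WT cells. Centring on bright probes turns the difference negative in the KO cells, and in Trim28 also in the WT cells.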

How the data were processed

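Methylated DNA and input DNA of 4 groups were hybridised to 1 Agilent array each, Cy3 for MeDIP and Cy5 for input without dye swaps, per the labels. The authors deposited scanner intensities on a linear scale, made by Feature Extraction, whose version is 10.5 per the submitters' processing notes, whereas the file headers give 10.5.1.1. Per the file headers, background was subtracted, surrogates replaced dim signals and dyes were normalized. A deposited log10 ratio served as an alternative. The build is mm9 per the file headers.

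From the intensities, log2 (Cy3/Cy5) was taken per spot, averaged per probe and centred on the median of 520554 probes. Probes with input well above background and no uneven spot on all 4 arrays were kept (328399), and genes needed at least 3. A 2-array call needed 2-fold and 80% of probes, with no test. limma 3.58.1 fitted genotype and treatment additively with Benjamini-Hochberg adjustment over 17035 genes. A run on simulated data used additive values with noise of the fit's own size. It held no spread between cultures or slides, so it lends the adjusted p no support. The number of arrays limits the precision. Channel differences are relative to the channel median of all probes. A KRAB pattern (F or V, any residue, DV, 1 to 5 residues, F or L, S or T, any 2 residues, EW) and a C2H2 finger pattern were searched in GENCODE M1 translations, not in a RefSeq protein table as planned. Named genes were the called members, the 2 largest differences each way per comparison, the 4 highest and 4 lowest by mean, a role list and cluster extremes. Members and lists were chosen with earlier results of these data known. Alternatives changed the input filter, outlier spots, centring, loess, starting values, background correction, summary, minimum probes, cluster definition and KRAB pattern.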

Additional observations from a re-analysis of the deposited data

Results flagged for a closer look

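Zfp81, a KRAB zinc finger gene on chromosome 17 (33495414 to 33495729), differed in opposite directions with decitabine in the 2 cell types, and this difference was not tested. Its log2 ratio was 0.84 higher with decitabine in KO cells and lower in WT cells (-0.18), a gap of 1.02. It had -0.28 and -1.43 with decitabine in KO and WT cells and -1.12 and -1.25 without, over 3 probes. The higher value with decitabine in KO cells came from probe 2 alone, which had 0.43 with decitabine and -2.29 without, while probes 1 and 3 were lower with decitabine (-0.64 and -0.64) than without (-0.49 and -0.57). With the median over probes the KO minus WT difference with decitabine was 0.22, against 1.15 with the mean. MeDIP signal was well above background in probe 2, on the KO decitabine array alone. Among all 17035 genes 36 had decitabine differences of opposite sign that lay at least 1 apart.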

How the results depend on the processing

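The genes past the 2-fold rule and Zfp75 were repeated singly under each setting (Zfp800 and Zfp81 have too few probes for a minimum of 5) and kept their sign, but not their size. For decitabine in KO cells, centring on bright probes left 0.19 in Zfp292, 0.21 in Zfp371, 0.26 in Zfp82 and 0.26 in Zfp354a, and loess 0.30 in Zfp82. Zfp800 in WT cells was at 0.41 with loess, and Zfp81 between KO and WT cells with decitabine at 0.22 with the median over probes. Genes passing limma were not repeated singly. Their split by direction turned under 2 settings, where the passing genes need not be the same ones. Of those passing for decitabine 100 of 103 were higher as reported, 1 of 133 centred on bright probes and 0 of 5 with loess. Of those passing for genotype 12 of 15 were higher as reported, 0 of 2 centred on bright probes and 0 of 6 with loess. Median and level results moved in 3 of 68 repeats, with values between -0.09 and 0.21. The counts that follow are of Zfp genes past the 2-fold rule, and the cause of each move was not tested. Decitabine against untreated, higher: KO cells had 4 as reported and 0 without the input filter, centred on bright probes, with loess, from the deposited log ratio and with normexp. WT cells had 1 as reported, 0 without the input filter, centred on bright probes, with loess and with at least 5 probes, and 2 with the median over probes. Lower: centring on bright probes gave 23 in KO cells and 2 in WT cells, against 0 as reported, beside 2119 and 329 of all 17035 genes. KO against WT with decitabine, higher: 2 as reported, 1 without the input filter, from the deposited log ratio, with the median over probes and with at least 5 probes, and 0 centred on bright probes, with loess and with normexp. Lower: 3 centred on bright probes, 1 with loess and 1 from the deposited log ratio. KO against WT untreated, higher: 1 as reported, 0 with loess, and 3 from the deposited log ratio and with the median over probes. Limma for decitabine passed 56 without the input filter, 5 with loess, 3 from the deposited log ratio and 10 with the median over probes. Limma for genotype passed 45 without the input filter, 45 with normexp, 2 centred on bright probes, 6 with loess, 2 from the deposited log ratio and 1 with the median over probes.

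With only probes bright on both arrays, a setting chosen after seeing the data, few Zfp genes kept 3 probes (18 in KO and 12 in WT cells with decitabine, 92 and 7 between KO and WT cells with decitabine and untreated). With decitabine it called 12 higher in KO cells (426 of 977 of all genes) and 4 in WT cells (147 of 800). Between KO and WT cells it called 4 higher with decitabine (139 of 5912 of all genes) and 0 untreated (5 of 416). Zfp medians minus other genes were 0.21 and -0.09 for decitabine in KO and WT cells and 0.16 for KO against WT untreated. The chromosome 13 cluster minus all genes was -0.30 with decitabine (-0.18 without the input filter) and -0.31 untreated (-0.20 with loess and with the median over probes). No paired analysis was possible because each group holds 1 array.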
